A study of Drosophila melanogaster with 8 samples.

Results

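Broad promoters are promoters at which transcription starts at many positions spread over a stretch of DNA. Here they are represented by 548 tag clusters (TCs) of chromosome arm 3R from cap analysis of gene expression (CAGE), an assay in which each tag marks the 5′ end of a capped RNA. A TC is a group of tag positions on 1 strand. The broad TCs were chosen by their level, width and summit share in the pooled libraries. They lie at or beyond position 400000 of 3R in dm3, have a mean of at least 10 tags per 1000000 tags of the library (TPM) over the 8 libraries and a width of at least 30 bp, and hold less than 30% of their pooled tags at the summit, their most used position. They are 548 of the 1764 TCs of that stretch with a mean of at least 10 TPM (31.1%), of 7510 such TCs in the genome and of 688364 TCs in all.

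In flies, the initiation pattern is a well known property of the core promoter. Broad promoters are typically found at housekeeping genes and carry elements such as the DNA replication-related element (DRE) or Ohler motifs in place of a TATA box. Focused promoters, with a single dominant start position, more often carry TATA box, Initiator or downstream promoter elements and serve genes with restricted expression. Many fly promoters also start RNAs on the opposite strand upstream of the gene, and such promoter upstream transcripts (PROMPTs) can be targets of the nuclear RNA exosome, the complex that degrades RNA from its 3′ end.

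The study compared Drosophila melanogaster S2 cells, an embryo-derived line, after RNA interference. The 4 libraries labelled exosome knockdown are annotated as cells given 20 µg of double-stranded RNA (dsRNA) against Rrp6 and 20 µg against Dis3, the catalytic exosome subunits. The 4 libraries labelled control are annotated as cells given 40 µg of dsRNA against GFP, a sequence the cells do not carry. In both groups the treatment was repeated after 2 days and the cells were harvested on day 4. The study calls its replicates biological, but the labels name no separate cultures or lanes for them. The p-values measure the spread between these libraries.

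The labels of the groups go against the study's own table of DNase I hypersensitive sites (DHSs). In that table the value of a single tag identifies the library of each column, and all 8 libraries could be matched. Of the values under 5 TPM in a column, 100% were whole tags of 1 library within 0.005 tags, and at most 9.05% were whole in any other library. The columns of the GFP control hold the libraries labelled exosome knockdown, and the columns of the knockdown hold those labelled control. Libraries are therefore named by their labels throughout, and each direction follows the labels, opposite to the groups of that table. Fold changes are those of the libraries labelled exosome knockdown over the libraries labelled control. The targeted genes and marker genes of S2 cells were not placed on dm3 here, so neither the depletion nor the cell type was checked in these libraries.

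Library totals ranged from 33565925 to 46388382 tags. Broad TCs took 3.93 to 4.53% of the tags in the libraries labelled exosome knockdown, against 3.37 to 3.60% in those labelled control. Those values lie in separate ranges. In bulk RNA, fewer cells with an active promoter and less RNA per cell cannot be told apart. Of the tags in all TCs of 3R with at least 10 TPM, broad TCs held 19.8 to 23.6% in the libraries labelled exosome knockdown and 20.3 to 21.7% in those labelled control, ranges that overlap.

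The rule set the width, the summit share and the level, which are therefore given only as a description. Widths ran from 30 to 214 bp with a median of 52 bp, and 25 broad TCs were at least 100 bp wide. The summit held 4.56 to 29.99% of the tags, with a median of 20.2%. The mean level ran from 10.0 to 1748 TPM with a median of 32.9 TPM, and 100 broad TCs reached 100 TPM. They lay on both strands, 283 on the plus and 265 on the minus strand. Along the arm they made up 29.7, 32.6, 31.2 and 30.7% of the TCs with at least 10 TPM in successive segments of 7 Mb, a nearly even spread.

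**Figure D1:**
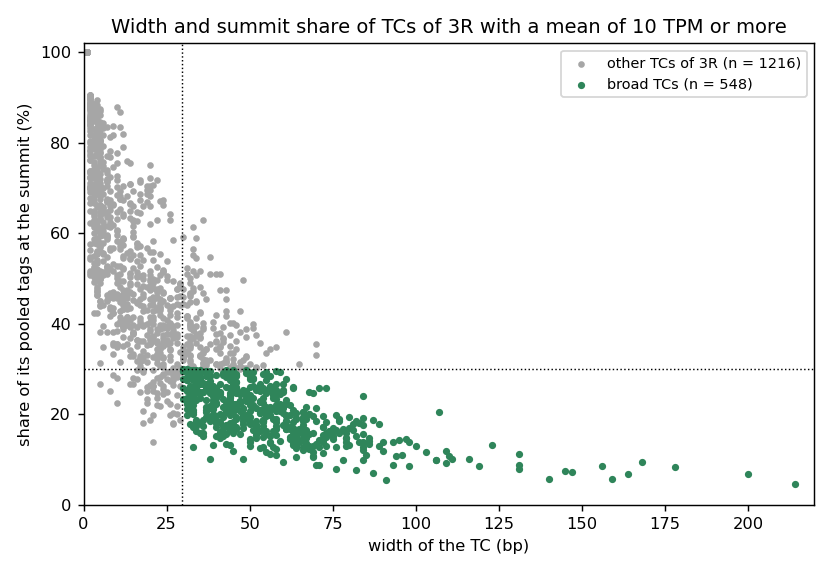
Width in bp (horizontal axis) and share of the pooled tags at the summit in percent (vertical axis) of each TC of 3R with a mean of at least 10 TPM. Green points are the 548 broad TCs, grey points the 1216 other TCs, and dotted lines mark the limits of 30 bp and 30%. The broad TCs form the wide, flat end of a continuous spread, not a separate cloud.

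The limits cut through a continuum. Just inside the limit on level lay the TCs with summits at 16937426 on the plus strand (10.00 TPM) and at 1387386 on the plus strand (10.1 TPM), and just outside lay plus 26601862 (9.98 TPM) and minus 24964292 (9.90 TPM). In this notation the strand is followed by the summit position on 3R. At the limit on width, minus 14100167 and minus 7575202 were 30 bp wide, whereas minus 20055729 and plus 21084627 were 29 bp wide and fell outside. At the limit on summit share, plus 4764449 and minus 21510770 held 29.99 and 29.98% of their tags at the summit, and plus 21047357 and minus 15857026, at 30.1 and 30.2%, fell outside.

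Within a broad TC, initiation was spread over several positions of similar strength. The median broad TC had an effective number of 9.78 positions (the inverse of the summed squared shares), against 3.16 in the 953 other TCs of 3R with at least 10 TPM and more than 1 position. The central 80% of its tags spanned a median of 37 bp, against 12 bp. The position ranked next to the summit held a median of 74.8% of the tags of the summit. It lay within 5 bp of the summit in 133 broad TCs and more than 20 bp away in 163, so that distance varied widely. Whether the starts of a TC formed separate groups was not measured over the broad TCs. These measures share tags with the rule and were not tested.

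The most used position often differed between libraries. A low summit share leaves close rivals to the summit, so the rule bears on this count and on its contrast with the other TCs, which are given as a description. In 182 of the 548 broad TCs (33.2%) all 8 libraries had the same summit, against 736 of the 953 other TCs (77.2%). A pair of summits alternated over the libraries in 246 broad TCs and 3 or more in 120, with up to 5. Summaries of the shape overlapped between the groups. The median summit share over the broad TCs was 19.4 to 20.5% in the libraries labelled exosome knockdown, against 19.5 to 20.2% in those labelled control, and the median effective number of positions was 9.16 to 9.81, against 9.54 to 10.0.

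The 4 strongest broad TCs each used their own arrangement of starts. Plus 14068480 was the strongest of all, at 2233, 1715, 2455 and 2017 TPM in the libraries labelled exosome knockdown, against 1574, 1518, 1230 and 1244 TPM in those labelled control. The lowest of the first set lay above the highest of the second, and the log2 fold change was 0.68 (SE 0.18, edgeR adjusted p = 0.0062). The TC was 50 bp wide. Its summit held 15.5 ± 1.2% of the tags in the libraries labelled exosome knockdown and 13.5 ± 1.1% in those labelled control (SD, n = 4 each). A further group of starts around 26 bp upstream peaked at 11.1 ± 0.6%, against 11.2 ± 1.3%. Plus 10715991 averaged 1171 ± 127 TPM in the libraries labelled exosome knockdown and 785 ± 83 TPM in those labelled control (SD, n = 4 each). The log2 fold change there was 0.66 (SE 0.16, edgeR adjusted p = 0.0041).

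Plus 18182420 had 1748, 1021, 1541 and 1293 TPM in the libraries labelled exosome knockdown, against 1452, 1234, 689 and 725 TPM in those labelled control. Those values overlapped, and the log2 fold change of 0.53 (SE 0.27, edgeR adjusted p = 0.11) did not pass the test. Its summit share did not overlap, at 29.1, 30.6, 32.5 and 30.9%, against 28.1, 26.6, 22.1 and 25.3%, and the position 12 bp downstream moved the other way, at 12.8 ± 0.8%, against 16.8 ± 1.1% (SD, n = 4 each). Minus 26714776, at 952, 780, 1022 and 1117 TPM, against 706, 678, 640 and 815 TPM, overlapped in 1 library pair. Its log2 fold change was 0.53 (SE 0.16, edgeR adjusted p = 0.012), a call that ended when only TCs with at least 10 TPM were fitted (0.28, adjusted p = 0.16).

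Plus 19929323 was both the widest broad TC, at 214 bp, and the one with the lowest summit share, at 4.56%, with an effective number of 68.1 positions. It met the limit on level only through the libraries labelled control, with 5.47, 5.12, 5.17 and 3.42 TPM in the libraries labelled exosome knockdown, against 20.8, 15.2, 19.7 and 16.8 TPM in those labelled control (log2 fold change −1.81, SE 0.22, edgeR adjusted p = 4.6e-05). Plus 25835525 was 200 bp wide, at 16.4 to 22.2 TPM in the libraries labelled exosome knockdown and 12.0 to 26.1 TPM in those labelled control, and did not pass the test. Minus 27431645 was 178 bp wide, at 11.6 to 22.6 TPM, against 10.0 to 13.9 TPM. With summits at 5.54 to 5.60%, plus 4644326, minus 8847604 and plus 5928809 followed plus 19929323 in low summit share. Plus 4644326, 91 bp wide, had a log2 fold change of 1.11 (SE 0.20, edgeR adjusted p = 0.00072), and the other pair did not pass the test.

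1 broad TC could be tied to a gene. Plus 8257084 spans 8257047 to 8257089 of 3R, 43 bp, and begins 17 bp beyond a DHS that the study lists for the PROMPT of Prosα2, which encodes the α2 subunit of the 20S proteasome, a housekeeping complex that degrades proteins. The TC had 377, 401, 307 and 338 TPM in the libraries labelled exosome knockdown, against 204, 209, 240 and 299 TPM in those labelled control. The groups did not overlap, and the log2 fold change was 0.68 (SE 0.18, edgeR adjusted p = 0.0066). With only TCs of at least 10 TPM in the fit it was 0.42 and no longer passed (adjusted p = 0.069). Its starts formed a summit near the 3′ end of the TC, with 20.7 ± 3.6% of the tags in the libraries labelled exosome knockdown and 25.0 ± 2.1% in those labelled control. A further 4 positions, 27 to 37 bp upstream, held 9.30 to 16.0% each, against 6.30 to 14.5%.

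The opposite strand at Prosα2 moved the other way. The nearest antisense TC upstream, with its summit at 8256806 and 278 bp away, had 0.32, 0.09, 0.10 and 0.08 TPM in the libraries labelled exosome knockdown, against 3.06, 3.26, 2.46 and 2.85 TPM in those labelled control (log2 fold change −4.14, SE 0.42, edgeR adjusted p = 1.7e-05). In the DHS and 200 bp beyond it, the antisense strand held 16, 4, 4 and 5 tags in the libraries labelled exosome knockdown, against 160, 143, 151 and 122 in those labelled control. The gene's own TC was thus higher in the libraries in which the antisense tags were scarce. At the DHS listed for the PROMPT of CG9399, the antisense strand likewise held 2, 1, 0 and 3 tags, against 76, 52, 46 and 49. These directions follow the labels. In the study's own quantitative PCR both PROMPTs were higher in the knockdown than in the control, the reverse of the labels and the order of its table of DHSs.

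**Figure D2:**
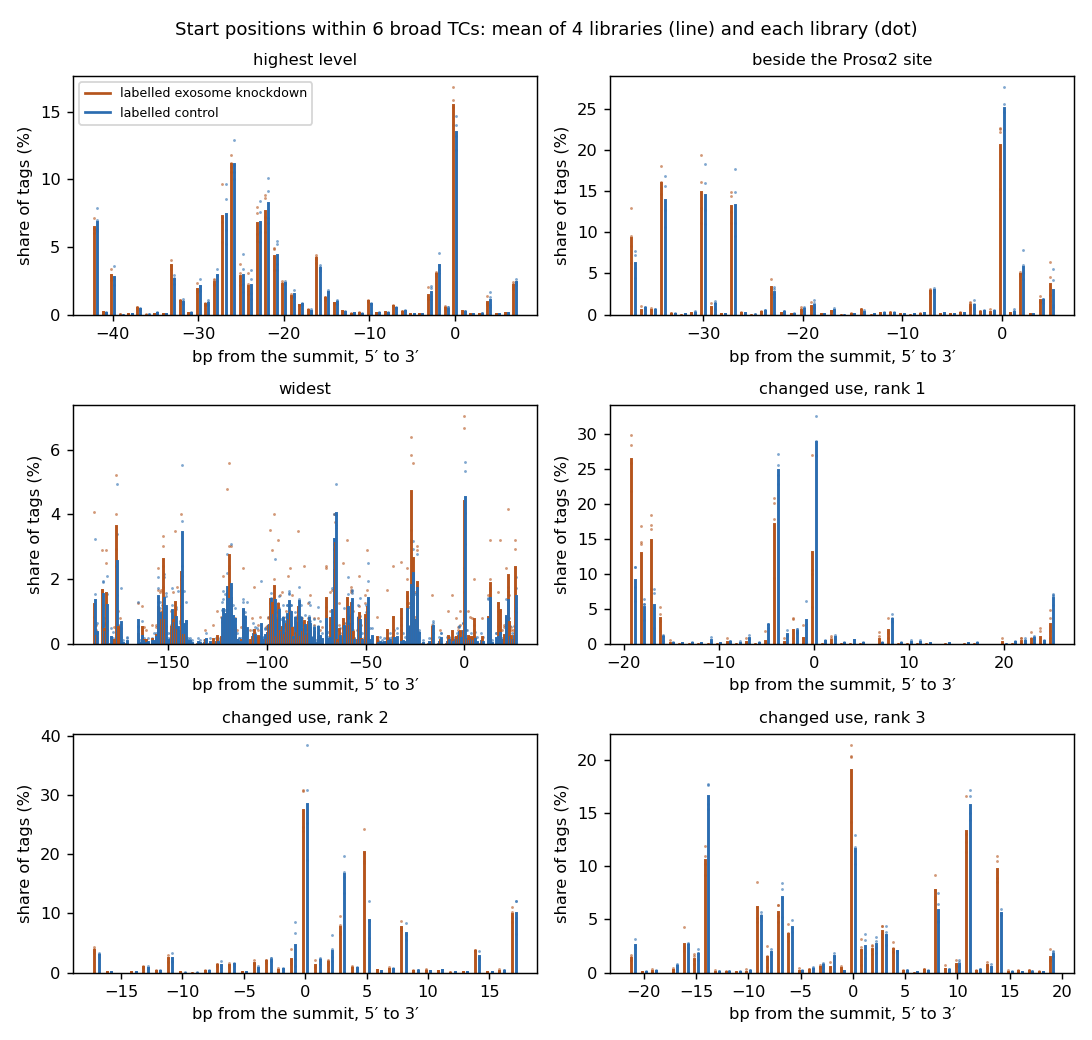
Share of the tags of a TC at each position (vertical axis, percent) by distance from the summit in bp, 5′ to 3′ (horizontal axis), for 6 broad TCs: the strongest (plus 14068480), the one beside the Prosα2 site (plus 8257084), the widest (plus 19929323) and those with the lowest p for changed use of positions (ranks 1 to 3 are plus 26601581, minus 14124594 and minus 7476410). Lines are means of 4 libraries and dots single libraries, orange for those labelled exosome knockdown and blue for those labelled control. At rank 1 the upstream group holds more of the orange tags and the summit more of the blue ones. That summit was set by pooled tags that were mostly blue.

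The level of broad TCs was compared between the label groups in a fit of all 30931 TCs with at least 1 TPM in 2 libraries of a group. Among the 548 broad TCs, all of which entered the fit, 253 (46.2%) were higher and 77 (14.1%) lower in the libraries labelled exosome knockdown at an edgeR adjusted p of 0.05 or less, and 218 were not called. Over all TCs tested, 25.0% were higher and 34.4% lower. That background consists mostly of weak TCs. Among the 1216 other TCs of 3R with at least 10 TPM, 37.2% were higher and 20.6% lower. The median log2 fold change was 0.39 for the broad TCs, 0.25 for those other TCs of 3R and −0.03 for all TCs tested.

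Most broad TCs, called or not, changed little, and the balance of higher and lower calls differed between fits. In 436 of the 548 broad TCs (79.6%), those not called included, the log2 fold change was between −1 and 1. A called change beyond 1 log2 unit was found in 111 broad TCs, beside 361 of the 1216 other TCs of 3R. When only the 7510 TCs with at least 10 TPM were fitted, 153 broad TCs were higher and 121 lower, with a median log2 fold change of 0.13, beside 23.3% higher and 27.5% lower among all TCs in that fit. The other TCs of 3R then had a median of −0.00. In both fits the median of the broad TCs lay above that of the other TCs of 3R, a difference that was not tested.

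The limit of 10 TPM was met in both label groups by 481 broad TCs, in the libraries labelled exosome knockdown alone by 40 and in those labelled control alone by 27. TCs of the last 2 kinds passed only through the group in which they were high. Of the 481, 217 (45.1%) were higher and 54 (11.2%) lower. Among the 1036 other TCs of 3R that met it in both groups, 35.0% were higher and 17.8% lower. The TPM of the groups did not overlap in 54.9% of the broad TCs, against 52.0% of all TCs tested. In 213 (38.9%) they were higher and in 88 (16.1%) lower, beside 19.0% and 33.1% of all TCs tested and 28.7% and 20.1% of the other TCs of 3R.

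**Figure D3:**
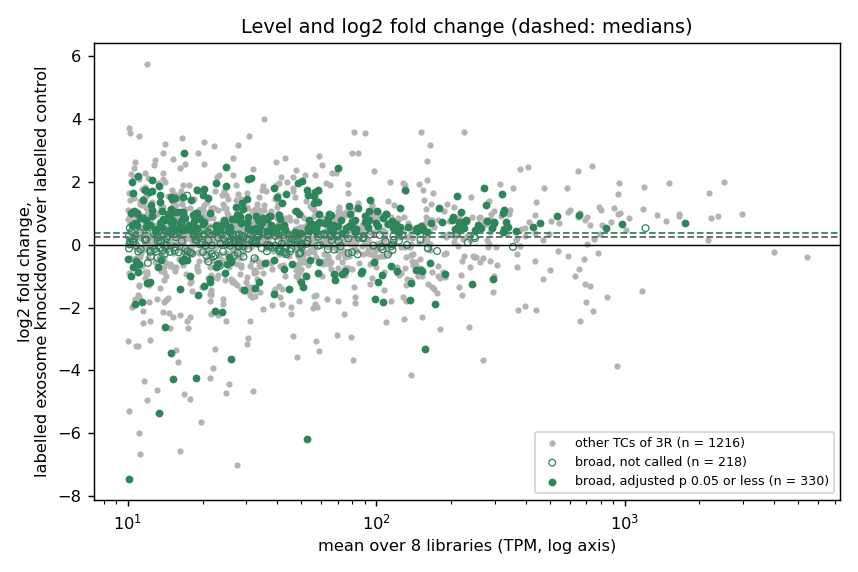
Log2 fold change of the libraries labelled exosome knockdown over those labelled control (vertical axis) by mean level in TPM (horizontal axis, log scale) for the TCs of 3R with at least 10 TPM. Filled green points are the 253 higher and 77 lower broad TCs called at an edgeR adjusted p of 0.05 or less, open points the 218 not called, grey points the 1216 other TCs. Dashed lines mark the medians, 0.39 for broad and 0.25 for other TCs, and the broad TCs farthest from their line lie below it.

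Some broad TCs changed by a larger factor. A called change beyond 1 log2 unit was found upward in 75 broad TCs (13.7%) and downward in 36 (6.57%), beside 15.1 and 30.7% of all TCs tested and 17.0 and 12.7% of the other TCs of 3R. Of these, 46 and 20 averaged at least 10 TPM in both label groups. Beyond 2 log2 units there were 8 upward (1.46%) and 11 downward (2.01%), beside 4.12 and 21.9% of all TCs tested and 4.85 and 5.18% of the other TCs of 3R, and 4 and 1 of them averaged at least 10 TPM in both groups. Most of the downward changes of that size thus belonged to TCs that met the limit on level only through the libraries labelled control. Only 2 broad TCs averaged under 1 TPM in the libraries labelled exosome knockdown, and the lowest mean of any broad TC in those labelled control was 4.18 TPM.

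The lowest log2 fold change belonged to plus 1387386, a TC 168 bp wide with 0.20, 0.15, 0.00 and 0.05 TPM in the libraries labelled exosome knockdown, against 22.4, 16.0, 18.2 and 23.7 TPM in those labelled control (−7.46, SE 0.55, edgeR adjusted p = 3.8e-06). This TC and the other 3 with the lowest log2 fold changes, described next, all met the limit on level only through the libraries labelled control. Head to head with it, 206 bp away, lay another broad TC, minus 1387180, which had 1.59, 1.67, 0.88 and 1.39 TPM, against 29.8, 28.1, 34.7 and 23.2 TPM (log2 fold change −4.28, SE 0.26, edgeR adjusted p = 2.1e-06). Both strands of that site were thus high in the libraries labelled control and close to silent in the others.

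Minus 24983513 followed at 2.41, 0.95, 0.39 and 1.64 TPM in the libraries labelled exosome knockdown, against 106, 82.0, 108 and 121 TPM in those labelled control (log2 fold change −6.18, SE 0.46). The antisense TC 340 bp upstream of it, a single position, was also lower, at 319, 232, 167 and 347 TPM, against 1300, 1341, 1363 and 900 TPM (log2 fold change −2.12, SE 0.24). Plus 5916184 had 0.71, 0.18, 0.10 and 1.42 TPM, against 27.1, 30.0, 23.5 and 23.9 TPM (log2 fold change −5.37, SE 0.62), and its antisense TC 368 bp upstream had a log2 fold change of −4.65 (edgeR adjusted p = 2.6e-05). At each of these 3 sites the antisense partner was called lower with the broad TC. Over all broad TCs called below −1 log2 unit, 18 had an antisense partner and 9 of those partners were called lower, beside 62.2% of the partners of all TCs with at least 10 TPM called below −1 log2 unit and 75.9% of those of the other TCs of 3R called so.

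The 4 highest log2 fold changes were smaller in size than the 4 lowest. Of the 4 TCs, only plus 24706497 averaged at least 10 TPM in both label groups, and the other 3 met the limit on level only through the libraries labelled exosome knockdown. Plus 20579603 had 34.9, 32.0, 29.0 and 21.8 TPM in the libraries labelled exosome knockdown, against 4.00, 3.70, 1.62 and 7.39 TPM in those labelled control (log2 fold change 2.91, SE 0.40, edgeR adjusted p = 0.00011). Plus 20159175 had 39.1, 37.8, 50.3 and 39.0 TPM, against 8.88, 10.5, 7.44 and 5.08 TPM (2.47, SE 0.24). Its antisense TC 148 bp upstream, at 33.4 TPM on average, did not pass the test (log2 fold change −0.50, adjusted p = 0.14). Plus 24706497 had 169, 85.1, 77.6 and 141 TPM, against 22.9, 16.7, 9.42 and 41.9 TPM (2.46, SE 0.42), and plus 8914401 averaged 17.9 ± 5.6 TPM, against 4.22 ± 1.39 TPM (2.18, SE 0.30, SD with n = 4 each). These TCs had no overlap between groups, which was part of how they were chosen.

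**Figure D4:**
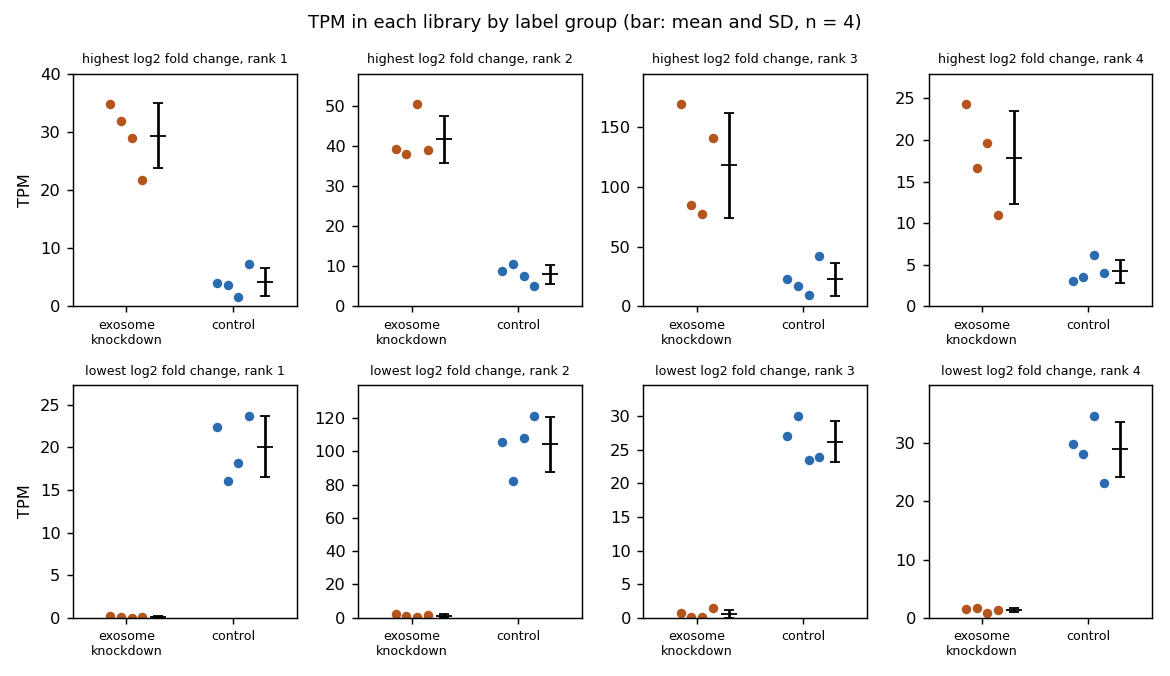
TPM of each library (vertical axis, from 0) for the 4 broad TCs with the highest (upper row, from the left plus 20579603, plus 20159175, plus 24706497 and plus 8914401) and the 4 with the lowest log2 fold change (lower row, from the left plus 1387386, minus 24983513, plus 5916184 and minus 1387180), libraries labelled exosome knockdown in orange and those labelled control in blue. Points are single libraries and black bars the mean and SD (n = 4). The lower row is close to 0 in orange, whereas the blue points of the upper row stay above it.

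The use of start positions within a TC was compared next, whatever the level of the TC. The positions with at least 5% of the pooled tags were tested in 544 broad TCs, of which 54 (9.93%) passed at an adjusted p of 0.05 or less (edgeR diffSpliceDGE, F test), beside 7.22% of the 6386 TCs tested in the genome. With the replicate number as a block, 22 broad TCs passed, beside 3.38%, and 20 of them were among the 54. Between 22 and 61 broad TCs passed when 1 library was left out, counts given without the share over all TCs. Leaving out any of 6 libraries moved the count by more than 1.5 times, to 22, 23 and 32 without replicates 2, 1 and 4 labelled exosome knockdown, and to 23, 25 and 33 without replicates 1, 3 and 2 labelled control. On simulated counts the F test made more false calls than its nominal rate.

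The 4 broad TCs with the lowest p passed in every one of those fits, with the block (adjusted p 0.0099 to 0.035) and without each library. At plus 26601581 the starts formed an upstream group 17 to 19 bp before the summit and a downstream group at the summit and 4 bp before it. The position 19 bp upstream held 28.4, 25.8, 29.8 and 21.7% of the tags in the libraries labelled exosome knockdown, against 8.13, 6.10, 11.0 and 11.0% in those labelled control (adjusted p of the TC = 0.0001). The summit held 5.22, 10.5, 9.95 and 27.0%, against 28.9, 32.5, 26.9 and 26.9%. The upstream position was thus apart in every library, whereas at the summit replicate 4 labelled exosome knockdown reached the level of the other group. This TC met the limit on level only through the libraries labelled control, with 3.05, 3.69, 4.97 and 3.14 TPM, against 26.3, 23.7, 24.9 and 22.8 TPM (log2 fold change −2.62, SE 0.21). Its summit and tested positions were chosen on the pooled tags, which came mostly from the libraries labelled control. A higher summit share in that group was therefore favoured by the choice and is given as a description.

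The other 3 had no called change in level, and the pair of positions described for each lay 1 to 14 bp apart. At minus 14124594 the position 5 bp downstream of the summit held 18.5, 20.2, 18.8 and 24.3% of the tags in the libraries labelled exosome knockdown, against 5.82, 8.78, 8.85 and 12.0% in those labelled control. The position 3 bp downstream went the other way, at 6.48, 9.53, 6.84 and 8.05%, against 13.5, 17.1, 19.7 and 16.1%. The summit held 27.5 ± 3.8%, against 28.4 ± 8.2% (SD, n = 4 each), so a pair of positions 2 bp apart carried the change.

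Minus 23742216 showed the same kind of exchange between neighbouring bases. The position 3 bp upstream of its summit held 6.81, 5.23, 9.53 and 7.47% in the libraries labelled exosome knockdown, against 20.8, 21.8, 18.2 and 13.0% in those labelled control, and the next base upstream held 20.0, 17.6, 23.2 and 19.5%, against 15.6, 14.8, 10.9 and 13.9%. Neither position overlapped between groups. At minus 7476410 the summit held 21.4, 20.2, 14.2 and 20.3%, against 10.2, 11.4, 11.8 and 13.0%, and the position 14 bp upstream held 10.5 ± 1.1%, against 16.6 ± 1.2% (SD, n = 4 each). The log2 fold changes of these 3 TCs, −0.20, 0.13 and −0.30 in the order given, did not pass the test.

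A shift of the whole pattern was measured by the mean start position, the tag-weighted mean distance from the pooled summit. Its difference between the label groups had a median size of 1.07 bp and exceeded 5 bp in 28 broad TCs. The groups did not overlap in 124 broad TCs (22.6%), beside 18.1% of the 6394 TCs of the genome with at least 10 TPM and more than 1 position. In 101 of them (18.4%) the starts lay farther upstream in the libraries labelled exosome knockdown, by a median of 2.91 bp, and in 23 (4.20%) farther downstream, by a median of 2.71 bp. Among the genome's TCs the shares were 11.8% upstream and 6.29% downstream, and among the other TCs of 3R they were 7.66% and 7.35%. Whether the direction is particular to broad TCs was not tested.

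The upstream displacement was small but present in each library. The median of the mean start position over the broad TCs was 1.91, 1.29, 1.82 and 1.61 bp downstream of the summit in the libraries labelled exosome knockdown, against 2.51, 1.99, 2.63 and 1.97 bp in those labelled control, values that do not overlap. The upstream count exceeded the downstream one at each level, at 31 and 3 of the 168 TCs under 20 TPM, 35 and 5 of the 185 from 20 to 50 TPM, and 35 and 15 of the 195 from 50 TPM. It also did so among the TCs called lower (30 and 2 of 77), not called (35 and 3 of 218) and called higher (36 and 18 of 253) in level. Without replicate 4 labelled exosome knockdown or replicate 3 labelled control, 39 or 35 broad TCs were apart downstream. None of these split counts is set beside the same class of all TCs. Over the 6394 TCs of the genome the upstream count also exceeded the downstream one, at 753 and 402, so the excess is not shown to be a trait of broad TCs.

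**Figure D5:**
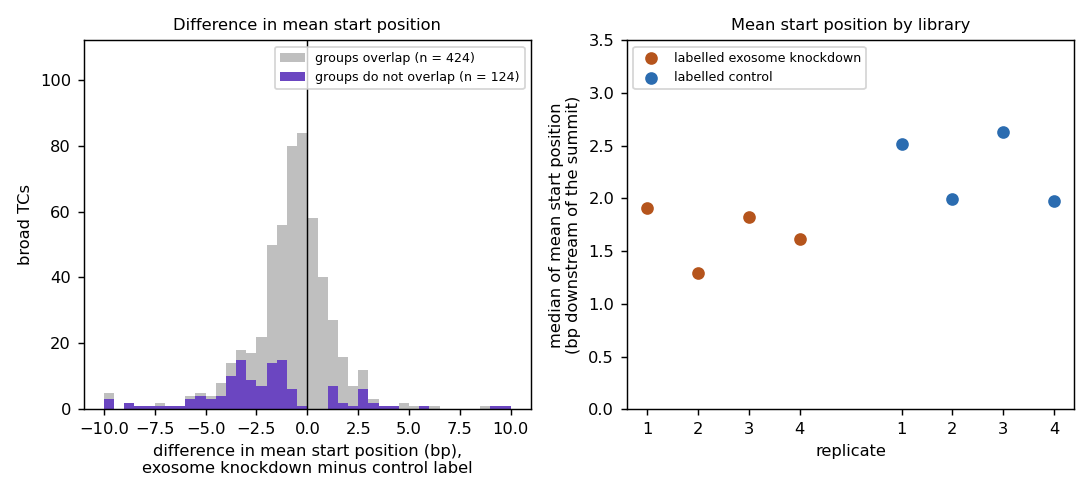
Left, number of broad TCs (vertical axis) by difference in mean start position in bp, libraries labelled exosome knockdown minus those labelled control (horizontal axis, differences beyond 10 bp drawn in the outermost bins), with the 124 TCs whose groups do not overlap in purple. Right, median over the broad TCs of the mean start position (vertical axis, bp downstream of the summit) in each replicate. The purple part lies mostly left of 0 (101 upstream, 23 downstream), and the 4 orange points lie below the 4 blue ones.

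Single TCs moved by more than 10 bp. The examples here were chosen after their values were seen. Minus 13529937 lay 17.6 bp farther upstream, with mean start positions 34.9, 41.8, 55.4 and 37.3 bp upstream of the summit in the libraries labelled exosome knockdown, against 22.8, 23.0, 24.1 and 29.2 bp upstream in those labelled control. It averaged only 1.77 ± 0.51 TPM in the first group, against 36.0 ± 3.5 TPM in the second (SD, n = 4 each), so its positions there rest on few tags. Plus 19759718 lay 14.1 bp farther downstream, at 32.3, 28.3, 36.6 and 31.9 bp upstream of the summit, against 47.1, 47.9, 50.8 and 39.7 bp. It was strong in both groups, at 289 ± 21 TPM, against 149 ± 14 TPM, and passed the test of position use (adjusted p = 0.0011). Of the 32 TCs named by rule, 31 had tags in every library, and 5 of the 31 had mean start positions with no overlap, which gives the smallest two-sided exact permutation p of 4 libraries against 4, 0.0286, and an adjusted p over the 31 of 0.177.

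Broad TCs often had a partner on the opposite strand. Partners were sought only among the TCs in the fit of levels, and only where their span did not overlap that of the broad TC. An upstream antisense TC with its summit within 500 bp was found for 282 of the 548 (51.5%), beside 528 of the 1216 other TCs of 3R (43.4%) and 44.4% of the genome's TCs with at least 10 TPM. The median distance was 269 bp, and 128 lay within 250 bp. The partner itself reached 10 TPM in 174 cases and was weaker in 108. In 72 cases the partner was also broad, and 32 pairs of broad TCs were each other's nearest, 42 to 500 bp apart.

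More of the partners were higher than lower in the libraries labelled exosome knockdown. Among the 282, 121 (42.9%) were higher and 48 (17.0%) lower, beside 35.5% and 25.0% of the partners of all TCs with at least 10 TPM (edgeR adjusted p of 0.05 or less). The study defines PROMPTs by an antisense position within 500 bp upstream of an annotated gene start and names no upper limit on level. Gene models were not used here, so the weak partners, under 10 TPM, may include PROMPTs but are not a count of them. Of the weak partners, 40 of 108 (37.0%) were higher and 26 (24.1%) lower. Beside them stood 26.5% and 38.2% of the weak partners of all such TCs and 23.6% and 40.1% of those of the other TCs of 3R. The direction in which the Prosα2 partner moved was therefore not that of most weak partners of broad TCs that passed the test. Both members of a pair were higher in 28 of the weak cases (25.9%) and both lower in 10 (9.26%), whereas 6 (5.56%) had a higher broad TC with a lower partner and 1 (0.926%) the reverse. Over the 1474 weak partners of all TCs with at least 10 TPM, these shares were 13.4, 16.5, 8.48 and 2.85%.

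The strongest partners exceeded the broad TCs beside them by far. Minus 16647539, at 466, 348, 393 and 385 TPM in the libraries labelled exosome knockdown, against 300, 305, 247 and 279 TPM in those labelled control, stood 367 bp from an antisense TC of 3 bp with 1417, 4143, 4147 and 3298 TPM, against 1128, 1388, 435 and 1454 TPM. Both were called higher, with log2 fold changes of 0.58 (SE 0.15) and 1.66 (SE 0.43). The call of the broad TC ended when no filter beyond 10 tags was set (0.51, adjusted p = 0.080). Plus 7445815, at 17.3 ± 1.4 TPM, against 13.0 ± 0.04 TPM (SD, n = 4 each), had a partner at 1739, 1797, 1725 and 1728 TPM, against 949, 1280, 712 and 870 TPM, only 2 bp wide. Broad and focused initiation thus stood back to back at these sites.

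Of all 174 partners with at least 10 TPM, 81 (46.6%) were higher and 22 (12.6%) lower. Beside them stood 42.6% and 14.5% of such partners of all TCs with at least 10 TPM. The partners of minus 10152386 and plus 27436788, also among the strongest, sat beside broad TCs with no called change. Minus 10152386, at 10.4 ± 2.2 TPM, against 12.2 ± 1.6 TPM, did not pass the test, whereas its partner 423 bp away did, at 954 to 1145 TPM, against 500 to 912 TPM (log2 fold change 0.73, SE 0.20). At plus 27436788 neither TC passed, with the partner at 626 to 745 TPM, against 740 to 1011 TPM (log2 fold change −0.28, SE 0.16). Of the 32 pairs of broad TCs, both members were called higher in 9 (28.1%) and lower in 1 (3.12%), and in 2 pairs (6.25%) they were called in opposite directions. Among the 746 pairs of TCs with at least 10 TPM in the genome that were each other's nearest, the shares were 21.8, 3.75 and 9.12%, near those of the broad pairs.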

How the data were processed

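The authors deposited 1 table per CAGE library of S2 cells, with the count of tags that begin at each strand-specific position of dm3, not normalized. Per the submitters' notes and the study's methods, reads were trimmed of linkers, filtered on base quality (at least 30 in 50% of each read) and mapped with Bowtie 1.1.1, keeping unique hits with at most 2 mismatches. No removal of duplicate reads was described, so tags cannot be taken as independent molecules.

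On each strand, neighbouring positions up to 20 bp apart that had 2 or more tags in any library were joined, positions under 0.1 of the summit's pooled tags were dropped and the rest joined again. Tags over the whole span of a TC were divided by the library total (33565925 to 46388382 tags) to give TPM. The members and all lists were chosen with earlier results of these data known.

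Levels were compared with edgeR 4.0.16 (quasi-likelihood F test, TMM factors 0.888 to 1.06, limma 3.58.1, R 4.3.3) over 30931 TCs and the use of positions with diffSpliceDGE, each with Benjamini-Hochberg adjustment over all TCs tested at 0.05. Alternatives were DESeq2 1.42.0, RLE and library totals, other filters, other clustering, a replicate block and leaving out each library. Replicate numbers come from the sample titles. Deviations of same-numbered libraries had a Pearson r of 0.102, 0.218, 0.241 and 0.485 over 13371 TCs, against −0.44 to 0.215 for libraries of different number. Every pair met the limit of 0.1 set for a pairing, but replicate 1, at 0.102, lay below some pairs of different number. The main fits left the replicate number out, and the block was fitted only as an alternative. No pair of replicates agreed within sampling noise (chi-square per degree of freedom 24.2 to 109). The steps were tested on simulated data. Python 3.11.15, numpy 2.4.6, pandas 2.3.3 and matplotlib 3.10.9 were used.

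TCs are named by position, since dm3 gene models were not used here. Named were the 4 broad TCs that were strongest, widest, lowest in summit share, highest and lowest in called log2 fold change with no overlap in TPM, lowest in p for position use and highest in antisense level, those nearest each limit, and any within 500 bp of a listed DHS with a gene name. Sequences of the TCs were not used here, since no dm3 genome was read. Samples were barcoded in pools of 4 per lane, and which library was in which pool is not given in the sources used here.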

Additional observations from a re-analysis of the deposited data

Results flagged for a closer look

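Among the 64 groups of 4 TPM values of the 32 named broad TCs, 4 held a library far from the other 3 by Dixon's criterion, which flags about 1 group in 20 by chance. At minus 8847604, replicate 4 labelled control had 20.3 TPM, against 6.30 to 6.94 TPM in the other 3 libraries of that label, and without it the log2 fold change was 0.98 (edgeR adjusted p = 0.0077), against 0.39 (adjusted p = 0.41) with it. At plus 20159175, replicate 3 labelled exosome knockdown had 50.3 TPM, against 37.8 to 39.1 TPM. At plus 4764449, replicate 4 labelled control had 66.3 TPM, against 84.7 to 87.4 TPM. At plus 19929323, replicate 4 labelled exosome knockdown had 3.42 TPM, against 5.12 to 5.47 TPM.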

How the results depend on the processing

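The members depend on the clustering: 548 TCs met the rule, 968 with no trimming, 278 with merging within 10 bp, 399 with tags counted at kept positions only (the rule does not say which count is meant), and 533 to 547 without any 1 library. Of the level counts, 253 higher and 77 lower, the fit of TCs with at least 10 TPM gave 153 and 121 with a median log2 fold change of 0.13, and that with no filter beyond 10 tags gave 147 higher. Library totals alone gave a median of 0.29. Leaving out 1 library gave 214 to 260 higher, 62 to 75 lower and medians of 0.36 to 0.43. The level counts without 1 library and with no filter beyond 10 tags are not set beside those of all TCs. The replicate block changed no count by over 1.5 times except position use, where 54 TCs became 22, and ended 15 and added 9 single level calls among the broad TCs. Position use gave 106 with positions of at least 2% of the tags and 22 to 61 without 1 library, counts not set beside those of all TCs. Simes adjustment gave 4 of 544 broad TCs, beside 73 of 6386 in the genome. With the tags of the TC as offset (chosen after seeing the data) 84 of 544 passed, beside 871 of 6386 (13.6%). Antisense partners numbered 128 within 250 bp. Leaving out 1 library, also added later, gave 103 to 148 TCs with the mean start position upstream and 25 to 39 downstream, against 101 and 23. The log2 fold change of 5 named TCs changed sign, none of them called in either fit: plus 4764449 (−0.023), plus 5928809 (−0.17), plus 25835525 (−0.10) and minus 23742216 (−0.12) in the fit of TCs with at least 10 TPM, plus 5928809 (−0.0013) with library totals, and plus 27436788 (−0.16 to 0.048) without 1 library. The causes were not tested. Fewer libraries make separation of the groups easier by construction, and at 10 TPM the share of a single position rests on few tags per library.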
